A study of Mesocricetus auratus with 6 samples.

Results

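The genes described here make, break down and sense the polyamines, together with the translation factor EIF5A and the enzyme that starts its hypusine modification. They are SAT1, ODC1, OAZ1, OAZ2, AZIN1, AMD1, SRM, SMS, EIF5A and DHPS, 10 genes read by 21 of the 22215 probe sets tested. The set was chosen by gene name, with the difference between implantation and interimplantation sites in SAT1 and EIF5A already known. The members' values of this contrast are therefore a description. A threshold is used for them only to count the probe sets past it beside the share over all probe sets, and to tell which stay past it under other settings. Nothing is read from those counts. A probe set was taken where the platform annotation gave exactly 1 of these genes. The annotation gave SAT1 together with another gene for 1 further probe set, which was left out.

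On day 5 of pregnancy, when the blastocysts attach, RNA was prepared from the uterus of untreated Syrian golden hamsters, the species Mesocricetus auratus. Uterine pieces from around an implanting embryo (implantation sites, 3 arrays) were compared with pieces from between embryos (interimplantation sites, 3 arrays). Both groups share the stage and the absence of treatment; the sources used here give neither strain nor age, nor whether embryonic tissue stayed in the piece. The design text speaks of 3 animals, and the arrays are labelled as biological replicates but are not tied to an animal, so the errors measure the spread between these arrays. Each array gave 1 value per probe set on the log2 scale after RMA, a method that subtracts background, gives arrays a common distribution and combines the probes into 1 value per set. The probes were designed on human transcripts, so a dim probe set may read the hamster transcript poorly and shows neither that the RNA was absent nor that it did not differ.

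Polyamines (putrescine, spermidine and spermine) are small cations that bind RNA and DNA and are needed for growth. ODC1 makes putrescine from ornithine, AMD1 supplies the aminopropyl donor, SRM and SMS add it to make spermidine and spermine, and SAT1 acetylates both for export or back-conversion. Antizymes (OAZ1, OAZ2), whose translation is switched on by polyamines through a ribosomal frameshift, bind ODC1 protein and send it to the proteasome, and AZIN1, an ODC1-like protein without enzyme activity, captures the antizymes. Spermidine also gives part of itself to a single lysine of EIF5A: DHPS transfers it and DOHH completes hypusine, the form in which EIF5A helps ribosomes through difficult peptide bonds and termination. In rodents ODC activity is known to increase in the uterus during decidualisation. Much of this pathway is regulated by translation and protein turnover, and the arrays read RNA: neither enzyme activity, polyamine content nor hypusine was measured.

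Implantation sites had more EIF5A signal, by an amount that varied with the probe set, and less SAT1 signal at the brightest of its 3 probe sets. DHPS and SRM signal was higher by smaller amounts. Their groups were apart, as were those of AMD1 201197_at, but no probe set of these genes was past an adjusted p of 0.05 in limma's test. The groups overlapped in ODC1, SMS, OAZ1 and OAZ2. EIF5A was 2.53-fold higher at its brightest probe set (log2 difference 1.34 ± 0.10 SE) and SAT1 was 1.99-fold lower (−0.99 ± 0.15 SE), with 3 arrays per group. The largest AZIN1 difference, at 1 of 3 probe sets, was 1.42-fold higher. All other member probe sets differed by at most 1.28-fold. Of the 21 probe sets, 2 were past an adjusted p of 0.05 in limma's test in the higher direction (EIF5A 201123_s_at and AZIN1 201772_at), where 0.702% of all probe sets were. In the lower direction 1 was past it (SAT1 210592_s_at), where 0.356% of all probe sets were. The groups did not overlap, with the implantation arrays higher, in 9 of the 21, against 7.72% of all probe sets, and with the implantation arrays lower in 1 of the 21, against 8.3%. The lower count was 0 without implantation site 1 or without implantation site 3, and the higher count was 1 without any single array other than implantation site 2. Since the members were chosen with this contrast known, nothing is read from these counts. The median difference over the members was 0.09, and over all probe sets it was −0.01.

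**Figure D1:**
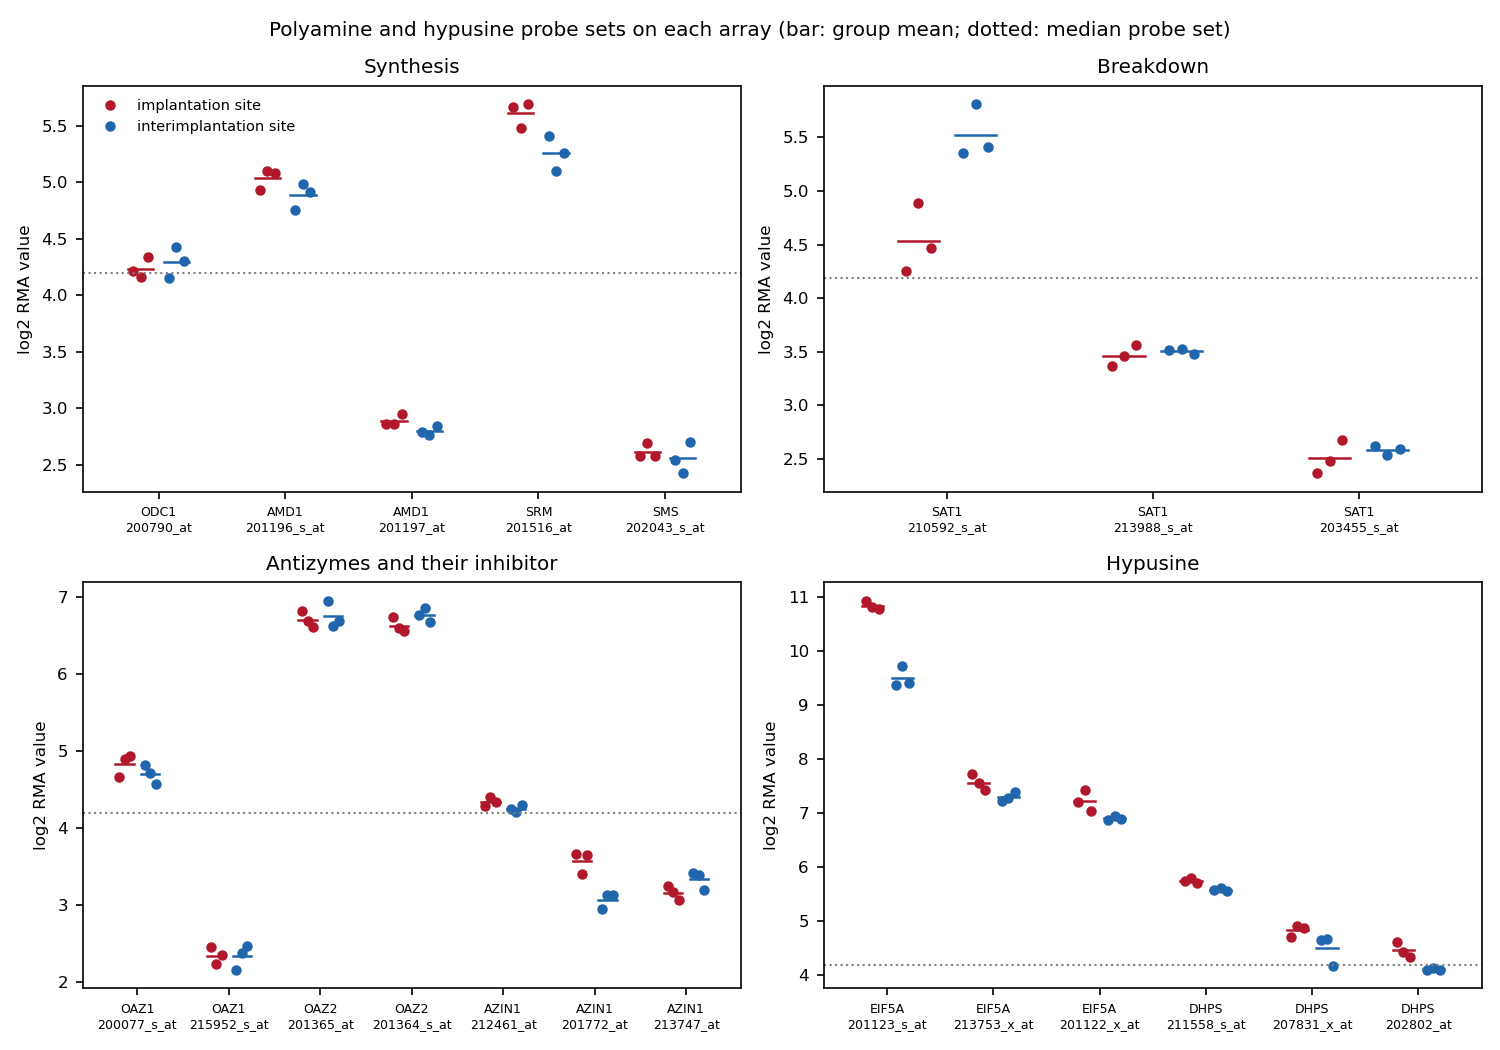
Log2 RMA value (vertical axis) of each of the 21 probe sets on each array, in 4 panels by role, with implantation sites in red, interimplantation sites in blue, bars for group means and a dotted line at the median probe set (4.19). The groups are apart in all 6 EIF5A and DHPS probe sets and in SAT1 210592_s_at, SRM 201516_at, AMD1 201197_at and AZIN1 201772_at. They overlap in ODC1, SMS, OAZ1 and OAZ2 and in the remaining SAT1, AMD1 and AZIN1 probe sets.

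Among the hypusine genes, EIF5A is the substrate. Its brightest probe set, 201123_s_at, read 10.93, 10.82 and 10.78 in the implantation arrays and 9.37, 9.73 and 9.41 in the interimplantation arrays. The lowest implantation array lay above the highest interimplantation array by more than either group's own range, and the group means were 10.84 ± 0.08 and 9.50 ± 0.20 (SD, n = 3). This probe set stood at the 99.95th percentile of brightness among all probe sets.

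The other EIF5A probe sets, also bright, showed smaller differences in the same direction. At 213753_x_at the implantation arrays read 7.72, 7.55 and 7.43 and the interimplantation arrays 7.23, 7.29 and 7.38, a difference of 0.27 ± 0.09 (SE). At 201122_x_at they read 7.20, 7.43 and 7.05 against 6.88, 6.94 and 6.90, a difference of 0.32 ± 0.10 (SE). In both the groups were apart, in the former by a narrow gap between 7.43 and 7.38. Names ending in _x_at mark probe sets whose probes can also bind other transcripts, and EIF5A has closely related copies in mammalian genomes. How much such copies add to the signal was not tested for any of the 3 EIF5A probe sets, 201123_s_at included. The difference of the mean over the 3 probe sets was 0.64, so the size of the EIF5A difference varied with the probe set.

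DHPS, deoxyhypusine synthase, was higher at all 3 of its probe sets and the groups were apart at each. At 211558_s_at the implantation arrays read 5.74, 5.80 and 5.71 and the interimplantation arrays 5.58, 5.61 and 5.55, a difference of 0.17 ± 0.07 (SE). This probe set varied little between arrays of a group, with a pooled SD of 0.038. At 202802_at the arrays read 4.62, 4.43 and 4.34 against 4.10, 4.13 and 4.10, a difference of 0.35 ± 0.08 (SE). At 207831_x_at they read 4.71, 4.91 and 4.88 against 4.66, 4.66 and 4.17. Interimplantation site 3 was the lowest of the 6; the difference was 0.34 ± 0.12 (SE) with it and 0.17 without it. The DHPS differences ran from 1.13-fold to 1.28-fold.

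**Figure D2:**
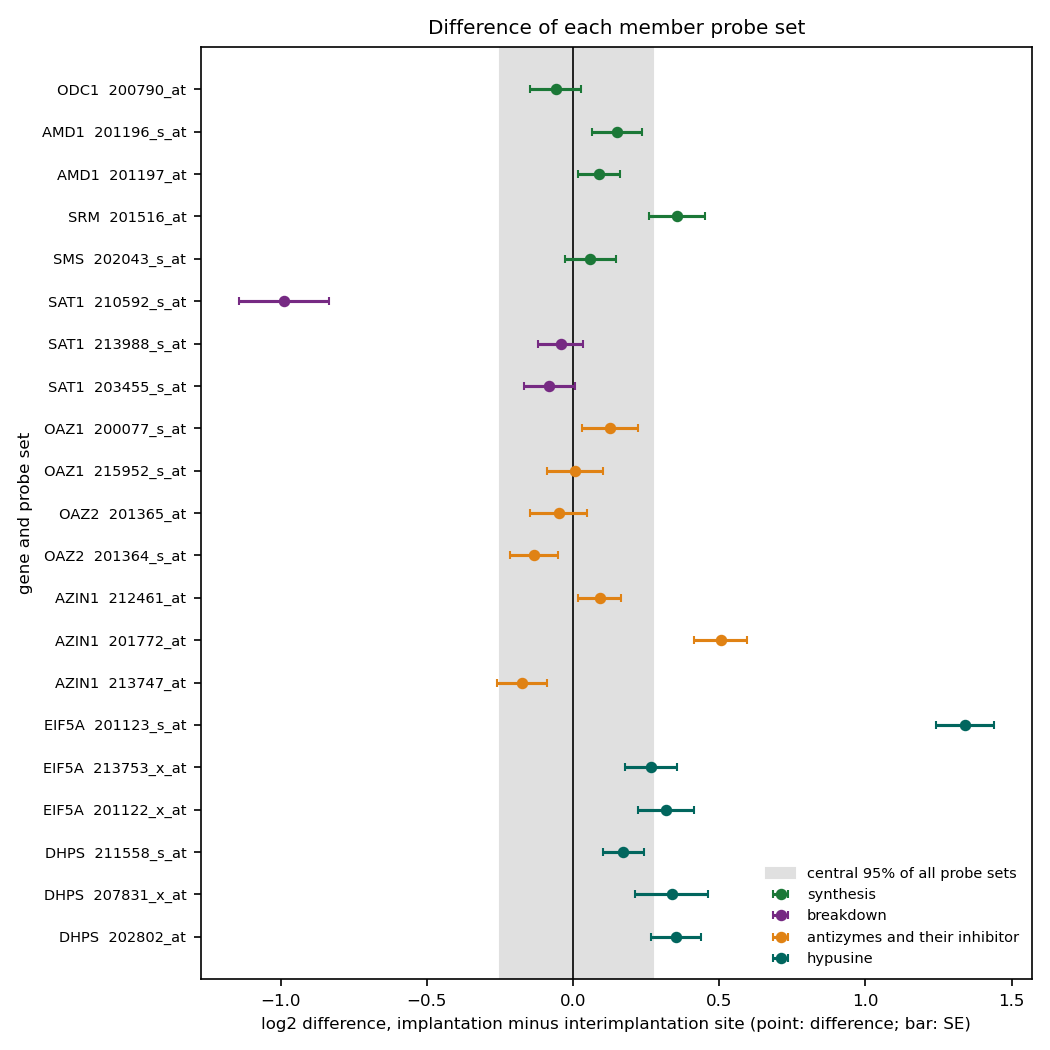
Log2 difference (horizontal axis, implantation minus interimplantation site) of each of the 21 probe sets, coloured by role, with bars for the SE of limma's fit and a grey band for the central 95% of all probe sets (−0.25 to 0.27). EIF5A 201123_s_at lies at 1.34 and SAT1 210592_s_at at −0.99. Most antizyme and synthesis probe sets lie inside the band, as do EIF5A 213753_x_at, DHPS 211558_s_at, SAT1 213988_s_at and SAT1 203455_s_at.

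Of the synthesis genes, SRM (spermidine synthase) had the largest difference. Its probe set 201516_at read 5.67, 5.48 and 5.69 in the implantation arrays and 5.41, 5.10 and 5.26 in the interimplantation arrays. The groups were apart, by a gap between 5.48 and 5.41, and the difference was 0.36 ± 0.09 (SE), or 1.28-fold. The 2 probe sets of AMD1, S-adenosylmethionine decarboxylase, were 0.15 ± 0.09 and 0.09 ± 0.07 (SE) higher, with overlapping groups at the brighter one, 201196_s_at. At the dimmer one, 201197_at, the groups were apart but the implantation and interimplantation means were close, at 2.89 and 2.80.

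ODC1, which starts the pathway, showed no clear difference. Its probe set 200790_at read 4.21, 4.16 and 4.33 in the implantation arrays and 4.15, 4.42 and 4.31 in the interimplantation arrays, which overlapped fully. The difference was −0.06 ± 0.09 (SE), with a 95% interval from −0.25 to 0.13, so a modest change in either direction cannot be told from none. SMS (spermine synthase) was dim, with values from 2.42 to 2.70, and its difference was 0.06 ± 0.09 (SE) with a 95% interval from −0.13 to 0.25. This probe set, the only one for SMS, stood at the 13.4th percentile of brightness, so it says little about the hamster transcript.

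SAT1, spermidine/spermine acetyltransferase, is the one breakdown enzyme of the set. At 210592_s_at the implantation arrays read 4.26, 4.88 and 4.47 and the interimplantation arrays 5.36, 5.81 and 5.41. The groups were apart, with means of 4.54 ± 0.32 and 5.53 ± 0.25 (SD, n = 3). Arrays of a group also differed from each other more than for nearly all other probe sets, with a pooled SD of 0.285 at the 99.4th percentile, and in both groups the array numbered 2 was the highest and that numbered 1 the lowest. With each array left out in turn the difference ran from −1.16 (without implantation site 2) to −0.85 (without implantation site 1 or interimplantation site 2).

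The other 2 SAT1 probe sets did not show this difference. At 213988_s_at the arrays read 3.36, 3.46 and 3.56 against 3.51, 3.53 and 3.47, a difference of −0.04 ± 0.08 (SE) with a 95% interval from −0.21 to 0.13. At 203455_s_at they read 2.36, 2.47 and 2.68 against 2.62, 2.54 and 2.59, a difference of −0.08 ± 0.09 (SE) with a 95% interval from −0.28 to 0.11. Both intervals exclude a difference as large as that of 210592_s_at, and in both the groups overlapped. These probe sets were dim, at the 33.5th and 12.4th percentile of brightness, against the 71.6th for 210592_s_at. Which part of the transcript each reads was not used here. With the mean over the 3 probe sets the SAT1 difference was −0.37.

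The antizyme genes had differences close to their errors. OAZ1 had differences of 0.13 ± 0.10 (200077_s_at) and 0.01 ± 0.10 (215952_s_at, SE), and OAZ2 of −0.05 ± 0.10 (201365_at) and −0.13 ± 0.08 (201364_s_at, SE), with overlapping groups in all 4. The 95% intervals of OAZ1 reached from −0.08 to 0.33 and from −0.21 to 0.22, and its second probe set was very dim, at the 7.19th percentile of brightness. The OAZ2 probe sets were bright, at the 97.3rd and 97.1st percentile, with 95% intervals from −0.26 to 0.16 and from −0.31 to 0.05.

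The 3 probe sets of AZIN1, the antizyme inhibitor, disagreed. At 201772_at the implantation arrays read 3.66, 3.41 and 3.65 and the interimplantation arrays 2.95, 3.13 and 3.13, a difference of 0.50 ± 0.09 (SE) with the groups apart. At 213747_at they read 3.24, 3.17 and 3.07 against 3.42, 3.39 and 3.19, a difference of −0.17 ± 0.09 (SE) with overlapping groups. The brightest, 212461_at, read 4.29, 4.40 and 4.33 against 4.25, 4.21 and 4.29, a difference of 0.09 ± 0.07 (SE) with overlapping groups. Thus the AZIN1 difference was seen at 1 probe set, which lay below the median brightness, and it ran from 0.45 to 0.59 there with each array left out in turn.

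The wider pathway was read from a list of 55 companion genes, written with earlier results of these data known (ASS1 and MXI1 had been seen), of which 44 were measured by 83 probe sets. Of the 83, 3 rose and 0 fell in limma's test at an adjusted p under 0.05, where 0.702% of all probe sets rose and 0.356% fell. An unadjusted p under 0.05 was reached by 7 in the higher and 7 in the lower direction, against 5.27% and 5.23% of all probe sets. The median difference of the 83 was −0.03, close to the −0.01 of all probe sets. The 3 that rose belong to GSPT1, the release factor GTPase that acts in translation termination, and ASS1, which makes argininosuccinate on the way to arginine, the source of ornithine.

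GSPT1 rose at 2 of its 3 probe sets. At 201912_s_at the implantation arrays read 5.41, 5.78 and 5.55 and the interimplantation arrays 4.77, 5.01 and 4.79, a difference of 0.72 ± 0.11 SE (limma adjusted p = 0.00692). At 215438_x_at they read 4.63, 5.01 and 5.09 against 4.12, 4.15 and 4.06, a difference of 0.80 ± 0.11 SE (limma adjusted p = 0.00475). The groups were apart at both, and both remained called in each of the 6 fits that left out an array. The third probe set, 217595_at, was among the dimmest of all and was at 0.04 ± 0.09 SE. ETF1, the partner of GSPT1 that recognises stop codons, was at 0.38 ± 0.08 SE (201574_at, limma adjusted p = 0.0563) and 0.24 ± 0.09 SE (201573_s_at, 0.307), with the groups apart at both. With dim probe sets (under the median brightness) removed before the fit, 201574_at passed (limma adjusted p = 0.0411).

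The remaining elongation and termination genes did not pass. The 4 probe sets of EEF1A1, the factor that brings transfer RNA to the ribosome, were at −0.13 to −0.26; after a repeated quantile normalization 2 of them passed, 213583_x_at at −0.56 (limma adjusted p = 0.0123) and 213614_x_at at −0.37 (0.0456), while 204892_x_at was at −0.43 and the brightest, 213477_x_at, at 0.00, since that scaling gives the top rank the same value on every array. Under that same scaling the brightest EIF5A probe set was at 1.12 and the other EIF5A probe sets at 0.30 and 0.25. EEF2, the translocation factor, was at −0.08 and 0.16.

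ASS1 (207076_s_at) read 4.48, 4.51 and 4.56 in the implantation arrays and 4.08, 4.03 and 4.02 in the interimplantation arrays. The groups were well apart, and the difference was 0.47 ± 0.07 SE (limma adjusted p = 0.00833); it missed the threshold without implantation site 3 (adjusted p = 0.0531). The other 12 probe sets for the supply of arginine, ornithine and methionine did not pass, and ran from −0.19 (ARG1, arginase) to 0.21 (ARG2, the mitochondrial arginase, 203946_s_at).

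Back-conversion, salvage and transport genes did not pass either. The 4 probe sets of SMOX and PAOX, the oxidases that return spermine and acetylated polyamines to shorter forms, were at −0.18 to −0.03, and those of the antizyme OAZ3 at −0.12 and 0.00. Salvage of methylthioadenosine, the by-product of spermidine and spermine synthesis, was read by 8 probe sets at −0.19 to 0.19. Transporters were read by 14 probe sets at −0.13 to 0.08. DOHH, which completes hypusine after DHPS, was at −0.10, 0.12 and 0.02, and EIF5A2, the second EIF5A gene, was dim and at −0.13 ± 0.11 SE. The 19 probe sets of the MYC network ran from −0.38 to 0.19 with a median of −0.04. Among them MYC, a transcriptional activator of ODC1, was at 0.14 ± 0.08 SE, while MXI1, which competes with MYC for its partner MAX, was at −0.38 ± 0.08 SE (limma adjusted p = 0.0625) and passed with the same dim probe sets removed (0.0447).

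**Figure D3:**
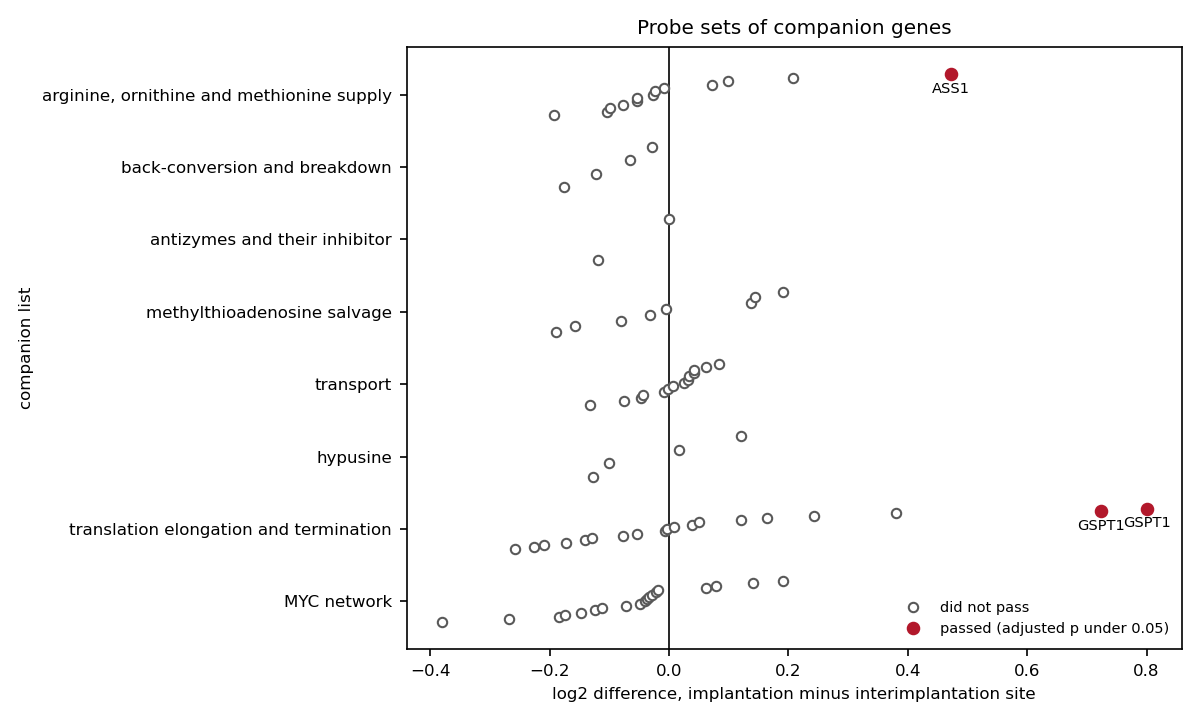
Log2 difference (horizontal axis, implantation minus interimplantation site) of the 83 companion probe sets in 8 lists (vertical axis), with filled points for those past an adjusted p of 0.05 in limma's test. The filled points are ASS1 at 0.47 and GSPT1 at 0.72 and 0.80, and all other points lie between −0.38 and 0.38.

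To describe the array profiles further, the 3 probe sets most like the brightest EIF5A and SAT1 probe sets were found among 19062 probe sets that name 1 other gene, by the root mean square difference over 6 arrays after each probe set's mean was subtracted. For EIF5A these were RAN, the GTPase of nuclear transport (root mean square difference 0.066), the matrix proteoglycan VCAN (0.138) and the histone variant gene H2AZ1 (0.148). For SAT1 they were the homeobox gene HOXB6 (0.058), the transcriptional repressor BCL6 (0.117) and the nuclear receptor coactivator NCOA2 (0.126). These 6 were chosen for this likeness, so neither their group differences nor the arrays that stand high in them are results of their own.

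**Figure D4:**
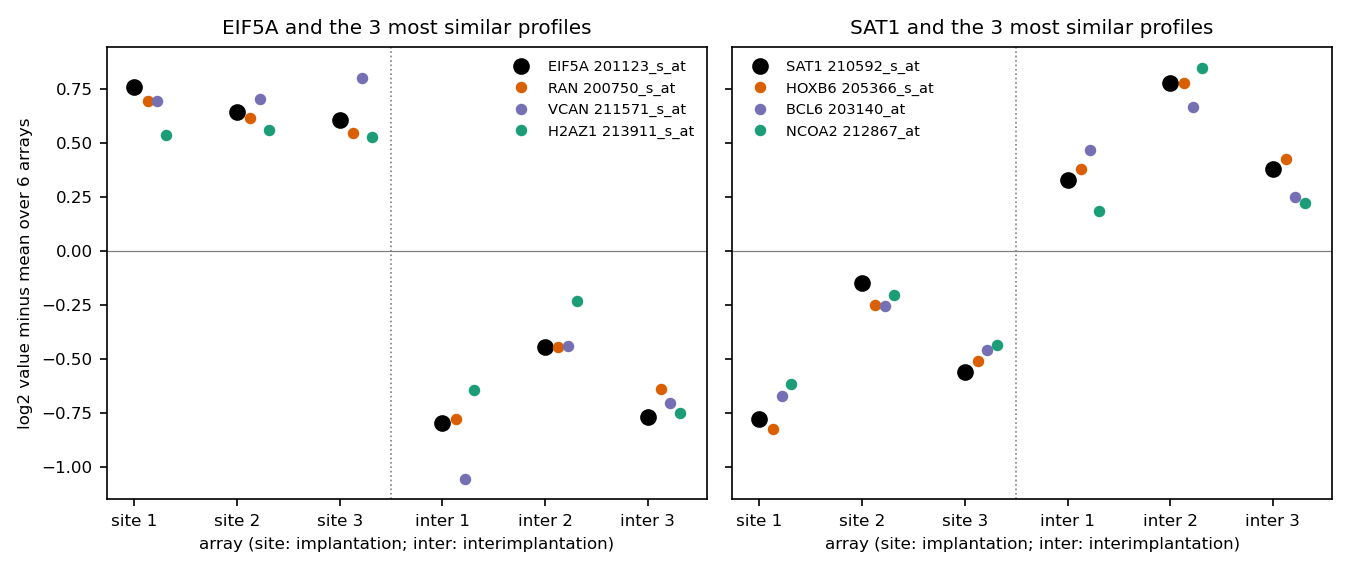
Log2 value less the probe set's mean over 6 arrays (vertical axis) on each array (horizontal axis, implantation then interimplantation sites) for EIF5A (left) and SAT1 (right) with the 3 most similar probe sets of other genes, offset sideways. EIF5A and RAN differ by a root mean square of 0.066, and SAT1 and HOXB6 by 0.058.

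Other features of the pieces differed between the groups beside these results. A list of 10 proliferation genes was read by 20 probe sets, of which 8 reached the median brightness. Its summed level was 8.60 to 8.67 in implantation arrays and 8.44 to 8.47 in interimplantation arrays (log2). Of the 20, 2 rose by limma's adjusted p, for CCNA2 and PCNA, and 0 fell. At an unadjusted p under 0.05, 9 rose and 0 fell, and the shares over all probe sets are given above. The median difference of the 20 was 0.10. PCNA 201202_at was dim, at the 11.7th percentile of brightness, and the other CCNA2 probe set, 213226_at, was at 0.02. Smooth muscle markers (16 probe sets, of which 10 reached the median brightness) summed to 9.09 to 9.12 against 9.19 to 9.44, with 2 that fell, for ACTG2 and TAGLN (at an unadjusted p under 0.05, 0 higher and 5 lower). Their median difference was −0.02, with ACTG2 at 6.15 against 6.95 and the bright ACTA2 probe set 200974_at the other way, at 6.46 against 6.30. Uterine markers (13 probe sets, of which 6 reached the median brightness, from ESR1, HAND2 and WT1) summed to 8.59 to 8.73 against 8.37 to 8.40, with 1 that rose, for WT1, whose bright probe set 216953_s_at read 7.24 against 6.50. The median difference of these 13 was −0.06, so the summed level followed WT1 and not the list as a whole. Trophoblast markers, 5 of 13 at or above that brightness, summed to 7.81 to 7.83 against 7.83 to 7.90. The ranges were 8.06 to 8.13 against 8.14 to 8.17 for epithelium and 7.77 to 7.81 against 7.80 to 7.89 for endothelium. Leukocyte markers summed to 7.53 to 7.62 against 7.53 to 7.61, with 1 that fell, for SPI1. Erythroid genes summed to 9.11 to 9.18 against 9.24 to 9.34. Among them HBB 217232_x_at, the brightest, was at −0.31 and HBB 211696_x_at at −0.23, but HBB 209116_x_at was at 0.01. SLC4A1 was at 0.16, KLF1 at −0.19 and ALAS2 at −0.16. RNA quality, read as actin signal at the 3′ minus the 5′ end, was −2.08 ± 0.22 against −1.70 ± 0.15 (log2, SD, n = 3; two-sided exact permutation p = 0.1, the smallest possible), and for GAPDH −0.20 ± 0.16 against 0.13 ± 0.17 (exact permutation p = 0.2). As 3′ minus middle signal the groups were apart for both, with actin at −3.17 ± 0.08 against −2.89 ± 0.14 and GAPDH at −1.43 ± 0.14 against −0.97 ± 0.09 (exact permutation p = 0.1 each). These control probes are human too, and actin read lower at the 3′ end than at the 5′ end and the middle on every array. How far they measure the quality of hamster RNA was not tested. The part of cell makeup or RNA quality in the EIF5A, DHPS, SRM and SAT1 differences was not tested. In bulk pieces, fewer cells of a type and less RNA per cell cannot be told apart.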

How the data were processed

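Per the submitters' processing notes, the authors used RMA and Partek 6.6, and the table they deposited was read as log2 values from its range (1.65 to 12.1). The sources used here give neither the settings nor the base of the log. Of the probe sets, 68 controls were left out and 22215 tested; the platform annotation gave 1 gene to 19065, several to 1043 and none to 2107. The symbols of all 10 members occur among the hamster genes of RefSeq (BCM_Maur_2.0), which served for names only; no sequence was used.

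The groups were compared across all probe sets with limma 3.58.1 in R 4.3.3 (lmFit, eBayes, two-sided, no covariate), with Benjamini-Hochberg adjustment over the 22215 probe sets and a threshold of 0.05. Differences are implantation minus interimplantation, with the SE and 95% interval of that fit; group values are means ± SD over 3 arrays. The number of arrays limits the precision. Summed levels are log2 of the summed linear values of a list. The fit was tested on simulated data.

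The members and lists were chosen with earlier results of these data known. Named were all member probe sets, companion probe sets past the threshold, and the 3 nearest profiles; ETF1, EEF1A1, MXI1 and other companions that did not pass, and the marker genes, were named after their values were seen. Alternatives were 3 scalings, 2 brightness filters, removal of _x_at probe sets, a replicate block, array weights, a variance trend, gene-level readings and each array left out. Same-numbered arrays deviated from their group means with correlations of 0.054, −0.0025 and 0.070, and the numbers were not taken as pairs. No label ties an array to an animal, and these correlations cannot exclude that the numbers mark pairs.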

Additional observations from a re-analysis of the deposited data

How the results depend on the processing

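Of 301 recomputed member differences, 300 moved by less than 1 SD between replicates and 0 of the called ones reversed. The exception was EIF5A 201123_s_at, at 1.12 after repeated quantile normalization. The brightness filters, removal of _x_at probe sets, replicate block and variance trend cannot change a difference, only its error. Leaving out 1 of 3 arrays moves a group mean by too little to shift a difference by 1 SD. Nor can it reverse the sign where the groups are apart, as in each called member. The share of all these settings in the 301 was therefore fixed in advance. Only the scalings and array weights could have moved a value by 1 SD. Some uncalled members changed sign. OAZ1 215952_s_at kept its sign in 10 of 13 settings and SMS in 12 of 13. ODC1 and OAZ2 201365_at kept it in 14 of 15, and SAT1 213988_s_at in 13 of 14. When each array was left out, the probe sets called numbered 83 to 140 higher (156 with all arrays) and 33 to 90 lower (79), the member probe sets called 1 to 2 higher (2) and 0 to 1 lower (1), and the companion probe sets called 2 to 3 higher (3). The member lost from the higher count was AZIN1 201772_at, without implantation site 1 (log2 0.46) or 3 (0.47) or interimplantation site 1 (0.45), 2 (0.53) or 3 (0.54), and from the lower count SAT1 210592_s_at, without implantation site 1 (−0.85) or 3 (−0.96). EIF5A 201123_s_at ran from 1.28 to 1.45. Array weights raised the count of lower probe sets to 133. With dim probe sets (under the median brightness) removed, 1 member was called higher, since AZIN1 201772_at was no longer tested, and 1 companion lower (MXI1); repeated quantile normalization called 2 companions lower (EEF1A1), the cause of which was not tested. Read by gene at the brightest probe set, EIF5A and SAT1 stayed past the threshold. With the mean over a gene's probe sets EIF5A did (log2 0.64) and SAT1 did not (−0.37). AZIN1 passed in neither reading. With the replicate number as a block, 159 probe sets were called higher and 93 lower, and the member and companion counts were unchanged. The SE of SAT1 210592_s_at was 0.079 with that block and 0.155 without it. Across all probe sets, 4 of 6 arrays deviated most like their own number in the other group. A dim probe set of a human array limits what can be said of the hamster transcript.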
